A study of Mus musculus with 32 samples.

Results

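The respiratory chain and ATP synthase genes of the nucleus were followed through 6 groups of single mouse eggs and 2-cell embryos. The members are the rows of the expression table whose gene name starts with Nduf, Uqcr or Atp5, matches Cox4 to Cox8 or is Sdha, Sdhb, Sdhc or Sdhd, without names containing -ps. They number 98 of 54532 genes. Complex I has 49 of them, complex II has 4, complex III has 8, complex IV has 19 and complex V, the ATP synthase, has 18. In the annotation 94 are protein coding and 4 (Cox6c2, Ndufa11b, Ndufb4c and Ndufs6b) are processed pseudogenes, copies whose reads may come from their parent genes. The name Atp5o stands on 2 identifiers, and the longer of them spans several neighbouring genes and was left out of sums.

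Each library came from 1 metaphase II egg or 1 embryo, lysed in 5 uL, with cDNA primed on poly(A) tails (SMART-seq v4, 15 cycles of PCR) and cut by the Tn5 transposase. The groups were 3 eggs labelled Trp53 KO and 3 WT eggs, 6 early 2-cell embryos labelled Trp53 MZ-KO and 8 WT early embryos, then, late in the 2-cell stage, 6 embryos with the MZ-KO label and 6 WT embryos. Early embryos were taken 28 to 32 hours and late embryos 48 hours after the injection of hCG, the hormone that triggers ovulation. The targeted allele lost exons 2 to 10 of Trp53 through a Cre driven by the germ cell gene Ddx4, and MZ-KO embryos had a KO mother and a KO father. WT controls were animals with both alleles floxed and not deleted, and all mice had a mixed Bl6/C57 background. The number of mothers behind a group is not stated, so the p-values measure the spread between single eggs or embryos.

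Complexes I to IV of the inner mitochondrial membrane pass electrons from NADH and succinate to oxygen, and complexes I, III and IV pump protons as they do so. The ATP synthase lets the protons back and makes ATP. All subunits of complex II and most subunits of the others are encoded in the nucleus, while a core of the others is encoded in mitochondrial DNA. Mouse eggs and cleavage embryos are known to rely on mitochondrial oxidation of pyruvate rather than on glycolysis, and they inherit their mitochondria and their first mRNAs from the egg. The main wave of transcription from the embryo's own genome comes at the late 2-cell stage.

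The values are the authors' FPKM, reads scaled to the size of the library and to the length of the gene. Reads behind the scale of a library numbered 7213613 to 27594882, and the gene length in use was the whole span with introns. Levels of different genes are therefore compared as RPM (reads of a gene per 1000000 reads behind the scale) per kb of annotated exons of GENCODE M21 (mm10). A share of a library's reads cannot tell more RNA of a gene from less RNA of other genes, nor fewer cells from less RNA per cell. Reads of genes that overlap cannot be told apart, and 43 members overlap another annotated gene. All 13 subunit genes of mitochondrial DNA are listed at 0 in the 32 libraries and were not compared. Trp53 itself had lowest, median and highest FPKM of 0.311, 0.856 and 1.11 in early embryos labelled MZ-KO, against 2.60, 6.29 and 9.29 in WT early embryos. In eggs the values were 6.33, 8.45 and 9.81 under the KO label, against 6.16, 7.16 and 10.3 in WT eggs. Late embryos labelled MZ-KO had 1.48, 2.62 and 5.39, against 0.557, 2.95 and 7.09 in WT late embryos. The early groups do not overlap, while in eggs and late embryos the ranges overlap and Trp53 does not separate the labels. Counting over the whole span includes exons outside the deletion at every stage, and its part in these values was not tested. Every direction given for eggs and late embryos rests on the labels alone. The library WT early 3 stands apart, with a median Spearman correlation with its group of 0.808, where the group's median is 0.874.

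Members of each of the 5 complexes had higher FPKM in late 2-cell embryos labelled MZ-KO than in WT late embryos, though not every member did. Of the 72 members that passed the filter (FPKM 1 or more in at least 6 of the 12 libraries), 49 rose and 1 fell (limma on log2(FPKM + 1), Benjamini-Hochberg adjusted p below 0.05 over all genes). Among all 8772 genes tested, 18.5% were called higher and 13.4% lower. The median difference was 0.78 on the log2 scale for the tested members, where it was 0.07 for all genes tested. A member can pass this filter through one group alone, and 18 did so through the MZ-KO libraries. Ndufb10, Cox8c, Atp5d, Ndufaf3, Ndufb4c and Cox7a1 are among these 18. For them the filter itself asks for high MZ-KO values, so their p-values and the separation of their groups are not independent of it. Of the 48 members that reached FPKM 1 in 6 libraries of both groups, 33 rose and 1 fell. The share of all genes under that condition was not computed. In 23 of the 72, every library labelled MZ-KO lay above every WT library, as in 8.21% of all genes tested, and in 0 every one lay below, where 5.48% of all did.

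**Figure D1:**
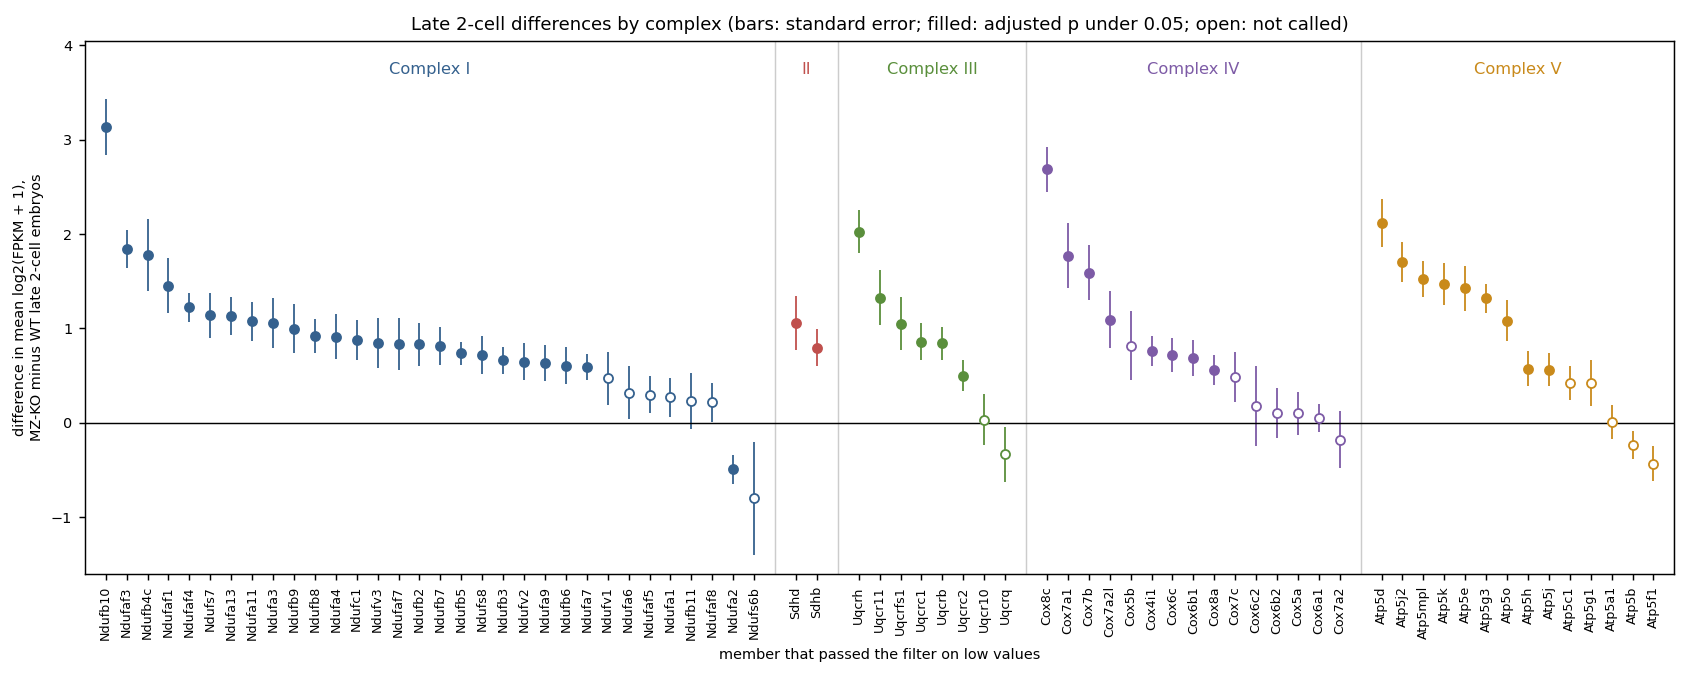
Difference in mean log2(FPKM + 1), MZ-KO minus WT late 2-cell embryos (y axis), of members that passed the filter (x axis), by complex, n = 6 each. Bars are standard errors, and filled points passed an adjusted p of 0.05. Differences run from -0.80 for Ndufs6b to 3.14 for Ndufb10, and filled points above 0 occur in every complex.

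In complex I, which takes electrons from NADH, 24 of 33 tested members rose and 1 fell. Ndufb10, an accessory subunit of the membrane arm (chr17:24722060-24724478), had lowest, median and highest FPKM of 19.3, 26.8 and 32.4 under the MZ-KO label, against 0.448, 2.82 and 3.97 in WT late embryos. The groups were far apart, with a log2 difference of 3.14 ± 0.30 (SE, limma, adjusted p = 4.24e-05), the largest among the members. Its span overlaps no other annotated gene. Ndufaf3, an assembly factor that acts early in building complex I, had 1.56, 3.30 and 5.19 against 0, 0.126 and 0.439 in WT late embryos. Every MZ-KO library was again above every WT library, and the difference was 1.84 ± 0.20 (adjusted p = 8.02e-05). Its partner Ndufaf4 had 11.7, 12.9 and 18.7 against 4.59, 5.46 and 5.91 in WT late embryos, a difference of 1.22 ± 0.15 (adjusted p = 0.000136) between groups that do not overlap. Assembly factors rose in 4 of 6 tested, the conserved core subunits in 3 of 5 (Ndufs7, Ndufs8 and Ndufv2) and the accessory subunits and others in 17 of 22. The calls of Ndufs8 and Ndufv2 are lost without a filter (adjusted p of 0.0513 and 0.0624) and with median-ratio scaling (0.0691 and 0.0606).

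The core subunit Ndufv1, which binds NADH, missed the threshold with overlapping groups, at a difference of 0.47 ± 0.28 (adjusted p = 0.224). Ndufs1, a core subunit that carries iron-sulfur clusters, did not pass the filter, with a mean of 1.01 ± 0.50 FPKM in MZ-KO and 0.849 ± 0.31 in WT late embryos (SD, n = 6 each). Ndufa4, named for complex I but known as a subunit of complex IV, had 10.9, 16.1 and 21.8 against 5.57, 7.35 and 13.9 in WT late embryos. These groups overlap, and the difference was 0.91 ± 0.24 (adjusted p = 0.0116), a call that is lost with median-ratio scaling (0.72, adjusted p = 0.0575). Ndufb4c, a pseudogene copy inside Mroh5, differed by 1.78 ± 0.38 (adjusted p = 0.00403), also with overlap. Its parent Ndufb4 was under FPKM 1 in all libraries, in a count that spreads over introns. The 1 member that fell was Ndufa2, a matrix-arm accessory subunit, with 33.96, 47.0 and 53.5 against 49.1, 68.5 and 73.7 in WT late embryos. The ranges overlap, and the difference was -0.49 ± 0.15 (adjusted p = 0.0276). That call is lost without any filter (adjusted p = 0.0644) and when all 6 groups are fitted together (adjusted p = 0.0926). It is also lost without any of 5 single libraries, such as WT late 5 (adjusted p = 0.0597).

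Complex II, the succinate dehydrogenase that also serves the citric acid cycle, had 2 of its 4 genes tested, and both rose. The membrane anchor Sdhd had 5.17, 9.45 and 11.6 FPKM under the MZ-KO label, against 1.86, 3.91 and 6.17 in WT late embryos, a difference of 1.06 ± 0.28 (adjusted p = 0.0128). The iron-sulfur subunit Sdhb had 1.28, 2.13 and 3.31 against 0.414, 0.765 and 1.34 in WT late embryos, a difference of 0.80 ± 0.19 (adjusted p = 0.00778). In both genes the lowest MZ-KO values lie below the highest WT values. The flavoprotein Sdha and the other anchor Sdhc stayed under the filter, with medians of 0.560 and 0.574 in MZ-KO and of 0.423 and 0.328 in WT late embryos.

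In complex III, which passes electrons from ubiquinol to cytochrome c, 6 of 8 rose. Uqcrh, the acidic hinge protein at the cytochrome c1 site, had 7.60, 11.7 and 19.9 against 1.32, 2.12 and 3.14 in WT late embryos. No library of one group reached the other, and the difference was 2.03 ± 0.23 (adjusted p = 9.38e-05). Uqcrfs1, the Rieske iron-sulfur protein, had 17.2, 24.3 and 32.4 against 4.67, 12.5 and 16.9, with a difference of 1.05 ± 0.28 (adjusted p = 0.0131) and no overlap. The core proteins differed by 0.86 ± 0.20 for Uqcrc1 (adjusted p = 0.00616) and by 0.50 ± 0.16 for Uqcrc2 (adjusted p = 0.0327). The call of Uqcrc2 is lost under 4 other settings, with adjusted p of 0.0717 to 0.1196. It is also lost without any of 7 single libraries, with adjusted p from 0.0501 (MZ-KO late 1) to 0.0709 (WT late 5). The small subunits Uqcr10 and Uqcrq were not called, at 0.03 (95% interval -0.56 to 0.63) and -0.34 (-0.97 to 0.30).

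In complex IV, cytochrome c oxidase, 8 of 15 rose. Cox8c, the COX8 isoform known from testis (chr12:102899316-102900526), had 4.75, 7.40 and 14.4 FPKM under the MZ-KO label, against 0, 0.281 and 0.826 in WT late embryos. It was near 0 in every WT library and above all of them in every MZ-KO library, and the difference was 2.69 ± 0.24 (adjusted p = 4.24e-05). Cox8c passed the filter through the MZ-KO libraries alone. Cox7a1, the isoform of heart and skeletal muscle, had 2.58, 3.76 and 10.8 against 0, 0.462 and 2.88, with a difference of 1.77 ± 0.35 (adjusted p = 0.00219). The library WT late 4 overlaps the MZ-KO range. Cox7b had 7.88, 18.4 and 33.7 against 3.62, 4.68 and 7.36 in WT late embryos, a difference of 1.59 ± 0.29 (adjusted p = 0.00147) with no overlap. Cox4i1, the common form of the largest nuclear subunit, had 32.7, 43.3 and 53.0 against 18.0, 25.5 and 29.9, a difference of 0.76 ± 0.16 (adjusted p = 0.00374) with no overlap.

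Cox7a2l, known as a factor of respiratory supercomplexes, differed by 1.09 ± 0.30 (adjusted p = 0.0161), and without a filter its adjusted p was 0.0585. Cox6c differed by 0.72 ± 0.18 (adjusted p = 0.00828), and 13.1% of its span lies in exons of Vps13b. Cox6b1, which bridges the 2 monomers of the enzyme, differed by 0.68 ± 0.19 (adjusted p = 0.0152), and the most abundant member, Cox8a, by 0.56 ± 0.16 (adjusted p = 0.0168). With median-ratio scaling the adjusted p became 0.0762 for Cox6b1 and 0.1679 for Cox8a, and with all 6 groups in 1 fit it was 0.0627 for Cox8a. Differences of Cox5a (0.10), Cox5b (0.82), Cox6a1 (0.05), Cox6b2 (0.11), Cox7a2 (-0.18) and Cox7c (0.49) did not pass the test. The interval was narrow for Cox6a1 (-0.28 to 0.37) and wide for Cox7a2 (-0.84 to 0.48).

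In complex V 9 of 14 rose. Atp5d, the delta subunit of the rotating stalk, had 6.16, 8.13 and 13.8 FPKM under the MZ-KO label, against 0.335, 1.08 and 3.04 in WT late embryos. Its groups are apart, with a difference of 2.12 ± 0.26 (adjusted p = 0.000131), and 10.2% of its span lies in exons of Cbarp. Atp5j2, subunit f of the membrane part, had 8.98, 13.7 and 18.5 against 2.40, 3.51 and 5.12, a difference of 1.70 ± 0.21 (adjusted p = 0.000136) with no overlap. Atp5k, subunit e, had 23.03, 28.3 and 32.6 against 5.07, 10.2 and 14.5, a difference of 1.47 ± 0.22 (adjusted p = 0.000453) with no overlap. The gene Atp5g3, one of 3 that encode the same mature c-ring protein, had 43.3, 57.3 and 66.5 against 16.7, 22.01 and 25.5, a difference of 1.32 ± 0.15 (adjusted p = 0.000101) with no overlap. Atp5g1 differed by 0.42 ± 0.24 (adjusted p = 0.194), and Atp5g2 was under FPKM 1 in all libraries. The catalytic beta subunit Atp5b had 64.5, 81.6 and 90.8 against 75.8, 92.5 and 124 in WT late embryos, a difference of -0.23 (interval -0.55 to 0.09, adjusted p = 0.243). For the alpha subunit Atp5a1 it was 0.01 (-0.39 to 0.41, adjusted p = 0.977). The values of both large F1 subunits overlap between the groups.

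**Figure D2:**
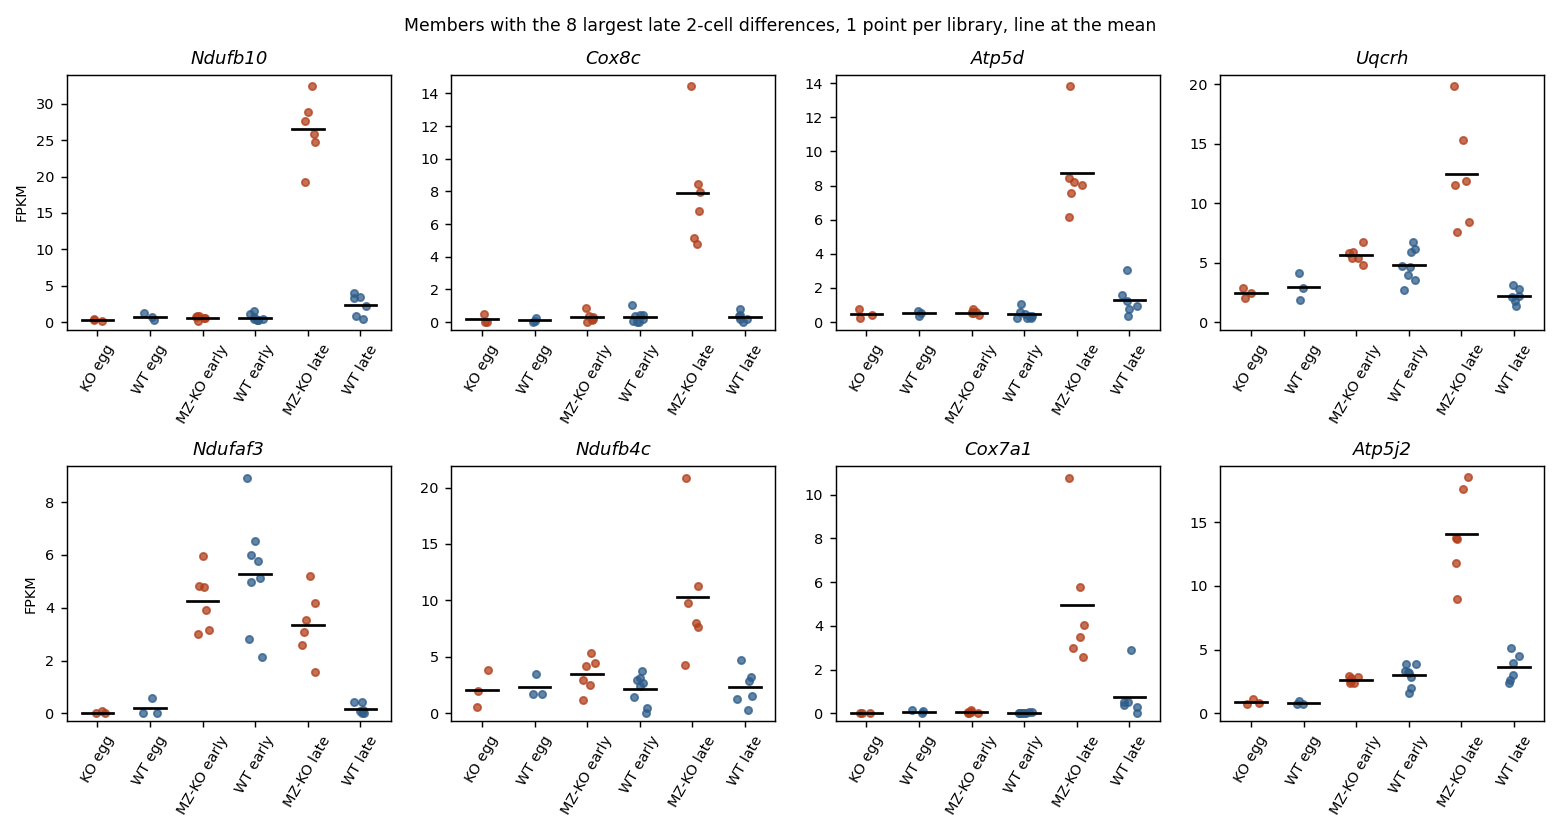
FPKM (y axis) of the members with the 8 largest called late differences in each library of the 6 groups (x axis), with lines at the group means, red for KO and MZ-KO and blue for WT. Ndufb10, Cox8c and Atp5d are low in all groups but the late embryos labelled MZ-KO, while Ndufaf3 is high in early embryos of both genotypes and low in WT late embryos.

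Several other facts of the late groups stand beside these differences, and some of their ranges overlap between the labels. Late embryos labelled MZ-KO had 9013 to 9745 genes at FPKM 1 or more, against 7989 to 9417 in WT late embryos. The summed FPKM of 8 markers of the 2-cell embryo was 79.3 to 213 in MZ-KO and 150 to 424 in WT late embryos, and that of 9 egg markers 49.2 to 155 in MZ-KO and 67.1 to 110 in WT. A list of 8 blood and immune genes summed to 31.3 to 156 in MZ-KO and 14.3 to 23.2 in WT late embryos, without overlap. In each group 3 of the 8 genes had a mean of 1 or more. The sum in MZ-KO comes from the alpha-globin genes Hba-a1 and Hba-a2, Alas2 and Cd68. The beta-globin gene Hbb-bt, Ptprc and Cd3e are listed at 0 in both late groups, and the beta-globin gene Hbb-bs in MZ-KO only. The part of these facts in the result was not tested. Of 10 cumulus and granulosa cell markers, 0 reached a mean of 1 in the late groups, and of 6 sperm markers 1 did. With libraries put on the scale of the median ratio of genes detected in all libraries, the median of all genes moved to -0.07, the members' median to 0.64, and the members called to 38 higher and 2 lower, where 1124 genes in all were higher and 1630 lower. With a trend in exon length removed, 43 members were higher and 1 lower, where 15.9% of all genes were higher and 15.3% lower. Among members whose span overlaps no other gene 29 of 42 rose, and among those that overlap one 20 of 30 rose and 1 fell. All genes were not split in this way. The library MZ-KO late 5 had the lowest value of its group in 35 of the 72 members, and without it 50 members rose.

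The members' promoters were compared with those of all genes in RefSeq's table (GRCm38.p6), 250 bases before to 50 after each start, and 74 of the 97 member symbols matched. Motifs of 4 factor families known from respiratory genes were searched on both strands. The motif of NRF1 (GCGCA, any base, then GCGC) occurred in 19 of 74 members (25.7%), where 5.19% of the 27025 genes of the table have it. The YY1 motif AAGATGGC occurred in 10 members (13.5%), where 3.19% of all have it. The core motif of ETS factors and GABPA, CCGGAAGT, occurred in 5 (6.76%), where 4.31% of all have it, and the SP and KLF motif GGGCGG in 33 (44.6%), where 38.2% have it. Of the 41 matched members that rose in late MZ-KO embryos, 8 (19.5%) had the NRF1 motif, and of the 16 other tested members 4 (25%) had it. The YY1 motif was in 7 (17.1%) and 1 (6.25%), and the ETS motif in 4 (9.76%) and 0. The SP and KLF motif was in 15 (36.6%) and 8 (50%). These splits were not tested. The 250 bases before the start are given for Ndufb10, which had the largest late difference, and, in each complex with one, for the called member with the largest difference among those with an NRF1, ETS or YY1 match there. Capitals mark motif matches. Complex IV is not shown, since no called and matched member of it had an NRF1, ETS or YY1 match in these 250 bases.
Ndufb10 (chr17:24724424-24724673, minus strand): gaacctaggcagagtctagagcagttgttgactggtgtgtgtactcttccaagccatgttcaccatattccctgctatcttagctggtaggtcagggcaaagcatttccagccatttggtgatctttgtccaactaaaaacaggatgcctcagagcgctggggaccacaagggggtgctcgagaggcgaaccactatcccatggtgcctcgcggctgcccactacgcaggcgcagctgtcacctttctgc
Ndufaf4 (chr4:24897833-24898082, plus strand): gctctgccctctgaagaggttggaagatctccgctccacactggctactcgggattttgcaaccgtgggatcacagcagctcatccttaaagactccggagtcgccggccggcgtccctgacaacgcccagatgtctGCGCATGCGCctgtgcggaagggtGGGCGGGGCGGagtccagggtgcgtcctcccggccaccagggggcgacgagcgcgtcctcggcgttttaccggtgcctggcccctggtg
Sdhd (chr9:50603850-50604099, minus strand): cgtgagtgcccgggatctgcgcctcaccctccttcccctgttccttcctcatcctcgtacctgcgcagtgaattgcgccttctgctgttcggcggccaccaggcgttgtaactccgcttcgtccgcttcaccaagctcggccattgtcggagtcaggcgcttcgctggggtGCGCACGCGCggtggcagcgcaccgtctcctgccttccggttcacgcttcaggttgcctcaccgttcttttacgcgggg
Uqcrh (chr4:116075071-116075320, minus strand): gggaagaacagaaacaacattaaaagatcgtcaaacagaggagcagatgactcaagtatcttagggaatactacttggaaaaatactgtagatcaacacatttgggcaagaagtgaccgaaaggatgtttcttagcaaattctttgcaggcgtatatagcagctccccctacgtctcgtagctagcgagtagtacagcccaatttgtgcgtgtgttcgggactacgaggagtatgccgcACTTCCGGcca
Atp5k (chr5:108434400-108434649, minus strand): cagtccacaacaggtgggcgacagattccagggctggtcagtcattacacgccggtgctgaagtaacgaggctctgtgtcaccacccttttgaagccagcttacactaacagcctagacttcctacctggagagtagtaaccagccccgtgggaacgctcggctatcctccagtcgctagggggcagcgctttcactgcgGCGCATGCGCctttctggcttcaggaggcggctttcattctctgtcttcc
Ndufb10 holds no match in these bases. The capitals are an NRF1 match and a pair of SP and KLF matches that share 1 base in Ndufaf4, an NRF1 match in Sdhd, an ETS match in Uqcrh and an NRF1 match in Atp5k. A match is only a stretch of letters, and binding was not measured.

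Summed over members, RPM showed the same direction by complex. The sum had a lowest, median and highest value of 5263, 6715 and 7218 RPM in late embryos labelled MZ-KO, against 3953, 4390 and 4528 in WT late embryos, and the groups do not overlap. Members at FPKM 1 or more numbered 75 to 79 in MZ-KO and 59 to 65 in WT late embryos. The medians of complex I were 2165 in MZ-KO and 1189 in WT, those of complex II 132 in MZ-KO and 63.9 in WT, and those of complex III 698 in MZ-KO and 408 in WT. They were 1434 in MZ-KO and 1014 in WT for complex IV, and 2110 in MZ-KO and 1678 in WT for complex V. Groups overlap in complexes III and V and are apart in the other 3. In eggs the sum was 2833, 3092 and 3292 under the KO label, against 2920, 2991 and 3076 in WT eggs. Early embryos had 2911, 3178 and 3882 under the MZ-KO label, against 2495, 2814 and 3328 in WT early embryos.

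**Figure D3:**
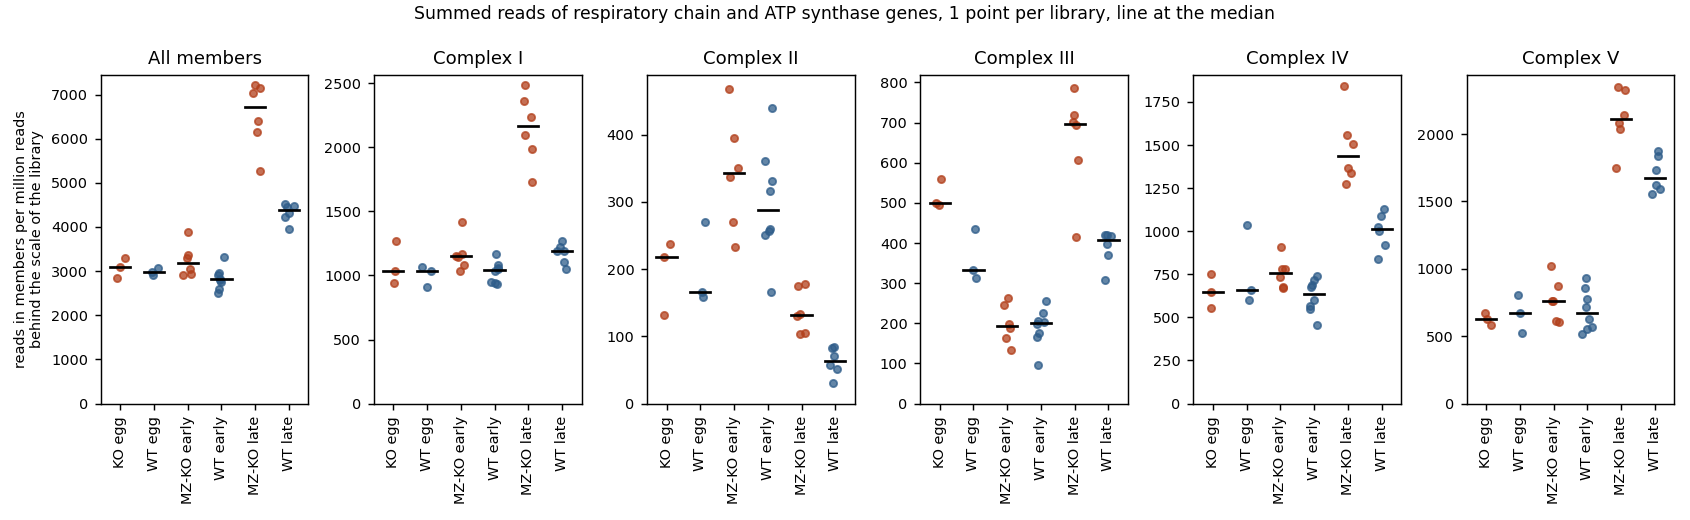
Summed RPM of the members (y axis) in each library of the 6 groups (x axis), for all members and by complex, with lines at the medians, red for KO and MZ-KO and blue for WT. Late embryos labelled MZ-KO lie at 5263 to 7218 and WT late embryos at 3953 to 4528 for all members, while complex II is highest in early embryos.

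In early 2-cell embryos 2 of the 52 tested members rose under the MZ-KO label and 0 fell, where 2.58% of 7675 genes were called higher and 0.704% lower. The median difference was 0.27 for the tested members, where it was 0.05 for all genes tested. At an unadjusted p below 0.05 there were 15 of the 52, where 21.3% of all genes tested reached this in either direction. Of the 52, 1 lay wholly above WT and 0 wholly below, where 1.36% and 0.365% of all genes tested did. Ndufa4 had 7.62, 13.6 and 27.5 FPKM in MZ-KO, against 2.73, 5.97 and 8.52 in WT early embryos, a difference of 1.12 ± 0.28 (limma, adjusted p = 0.0413) with overlapping groups. Cox6c, a small complex IV subunit, had 2.75, 3.56 and 7.36 against 1.48, 1.99 and 2.69, a difference of 0.71 ± 0.16 (adjusted p = 0.0265) with no overlap. Both calls depend on single libraries. Without MZ-KO early 6 the count of members called is 0 and without MZ-KO early 1 it is 6. Without WT early 2 it is 5 and without WT early 7 it is 3, while it is 1 without any of MZ-KO early 2, 3 or 4 and WT early 1, 4, 5 or 6. Leaving out WT early 3 or WT early 8, which had the lowest value of their group in 15 and 19 of the 52 members, left 2, though without WT early 8 the call of Ndufa4 is lost (adjusted p = 0.0584).

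Eggs labelled KO and WT eggs had no member called among 44 tested (limma), where 0.212% of all 6607 genes passed as higher and 0.121% as lower. Of the 44, 7 had an unadjusted p below 0.05, as 8.73% of all genes tested had in either direction, with adjusted p of 0.375 or more. Uqcrc2, the complex III core protein, was at 18.6, 20.7 and 18.5 FPKM in eggs labelled KO, against 10.5, 15.9 and 12.3 in WT eggs, without overlap. Uqcrfs1 was at 1.64, 1.34 and 1.57 against 0.552, 0.738 and 0.772 in WT eggs, also without overlap. Ndufb6, an accessory subunit of complex I, was at 5.64, 6.01 and 4.43 against 10.6, 8.09 and 7.70 in WT eggs, and Atp5a1 at 12.3, 7.65 and 8.38 against 14.6, 13.4 and 14.8. In all, 3 members lay wholly above (9.94% of all genes tested did) and 5 wholly below (5.57% did).

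The genotype difference of late embryos was set against that of early embryos as a contrast of 4 groups. Of 80 members tested, 30 had a larger difference in late embryos and 1 a smaller one, where 12% and 8.40% of 11558 genes did. The largest were Ndufb10 at 3.11 ± 0.34 (limma, adjusted p = 1.12e-06), Cox8c at 2.71 ± 0.29, Ndufaf3 at 2.04 ± 0.32, Atp5d at 2.00 ± 0.27, Cox7b at 1.98 ± 0.39 and Atp5j2 at 1.81 ± 0.24. Atp5f1, the b subunit of the peripheral stalk, had the smaller one, at -0.71 ± 0.21 (adjusted p = 0.0200). Its own values were 1.19, 1.61 and 1.90 FPKM in MZ-KO and 0.722, 1.09 and 1.98 in WT early embryos, and 3.35, 6.54 and 7.48 in MZ-KO and 6.71, 8.69 and 9.54 in WT late embryos. With median-ratio scaling the counts were 20 larger and 3 smaller, where 859 genes in all were larger and 1676 smaller. The same contrast of early embryos against eggs called 0 of 62 members (limma), where 0.217% of 9676 genes were larger and 0.134% smaller. Its median was 0.22 for the tested members, where it was -0.02 for all genes tested. Of the 62, 11 had an unadjusted p below 0.05, where 11.9% of all genes tested had in either direction.

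Between stages the members did not move as one block. From egg to early 2-cell in WT, 13 of 57 tested members rose and 9 fell, where 30.4% of 8619 genes rose and 20.9% fell. Values of the stages were apart for 11 that lay above and 8 below (24.9% and 16.7% of all). A member can pass the filter through one stage alone. Of the 35 members that reached FPKM 1 in 3 libraries of both stages, 6 rose and 7 fell. The share of all genes under that condition was not computed. Ndufaf3 had 2.14, 5.45 and 8.93 FPKM in WT early embryos, against 0, 0 and 0.598 in WT eggs, a difference of 2.34 ± 0.31 (limma, adjusted p = 8.9e-05). Cox6a2, the muscle isoform of COX6A, had 2.76, 6.46 and 11.8 against 0.239, 0.424 and 1.29 in WT eggs, a difference of 2.31 ± 0.34 (adjusted p = 0.000162). Sdhd (1.26), Ndufa2 (1.19), the accessory subunit Ndufa8 (1.15) and Atp5j2 (1.11) rose as well. The call of Sdhd is lost with the exon length trend removed (0.89, adjusted p = 0.0601) and without WT egg 1 (adjusted p = 0.0520), and that of Ndufa2 without a filter (adjusted p = 0.0547) and without WT egg 3 (adjusted p = 0.0881). Uqcrc2 fell to 1.14, 4.91 and 8.08 in WT early embryos, against 10.5, 12.3 and 15.9 in WT eggs, with a difference of -1.29 ± 0.34 (adjusted p = 0.00794). The others with the largest falls were Cox6b2 (-1.28), Ndufb8 (-1.13), Ndufb6 (-0.97), Ndufc2 (-0.77) and Atp5k (-0.76). Without WT egg 1 the calls of 3 of them are lost, at -0.93 for Cox6b2 (adjusted p = 0.1006), -0.57 for Ndufc2 (adjusted p = 0.0722) and -0.65 for Atp5k (adjusted p = 0.0996). Without WT egg 3 that of Atp5k is lost (adjusted p = 0.0527), and without a filter those of Cox6b2 (adjusted p = 0.0583) and Atp5k (adjusted p = 0.0772). With median-ratio scaling 10 members rose and 13 fell, where 26.9% of all genes rose and 27.8% fell. With the exon length trend removed 9 rose and 16 fell, where 24.0% of all rose and 27.2% fell. The median of all genes was 0.15, and with the length trend removed it was -0.03.

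From WT early to WT late embryos, 35 of 64 tested members rose and 12 fell, where 46.6% of 9319 genes rose and 38.4% fell. The late values lay wholly above for 29 and wholly below for 9 (36.7% and 28.1% of all). Of the 36 members that reached FPKM 1 in 6 libraries of both stages, 18 rose and 4 fell, and the share of all genes under that condition was not computed. The 11 tested members of complex V had 8 rises and 0 falls, and complex III had 4 rises and 2 falls of 6. The largest rises were those of Ndufa2 (49.1, 68.5 and 73.7 in WT late embryos, against 1.51, 4.62 and 6.67 in WT early embryos, 3.74 ± 0.24, adjusted p = 7.83e-10) and of the complex III subunit Uqcrq (18.5, 22.5 and 34.6 against 0.191, 2.13 and 3.44, 3.11 ± 0.27). Atp5g1 (3.10), the pseudogene copy Ndufs6b (2.94), Uqcr10 (2.87) and the core subunit Ndufs8 (2.84) followed, each without overlap between stages. Complex II went the other way, with 0 rises and 2 falls of 3 tested. Sdha had 0.288, 0.423 and 0.659 FPKM in WT late embryos, against 4.39, 6.81 and 11.5 in WT early embryos, a difference of -2.52 ± 0.18 (adjusted p = 1.81e-09), and Sdhc fell by 0.80. Ndufaf4 fell to 4.59, 5.46 and 5.91 in WT late embryos, against 41.1, 48.0 and 60.7 in WT early embryos, with a difference of -2.99 ± 0.13 (adjusted p = 7.97e-12). The differences of the other large falls were -2.45 for Cox6a2, -2.34 for Ndufaf3, -1.97 for Ndufa10 and -1.51 for Ndufa8. Ndufaf3 and Cox6a2 had their highest WT values in early embryos.

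**Figure D4:**
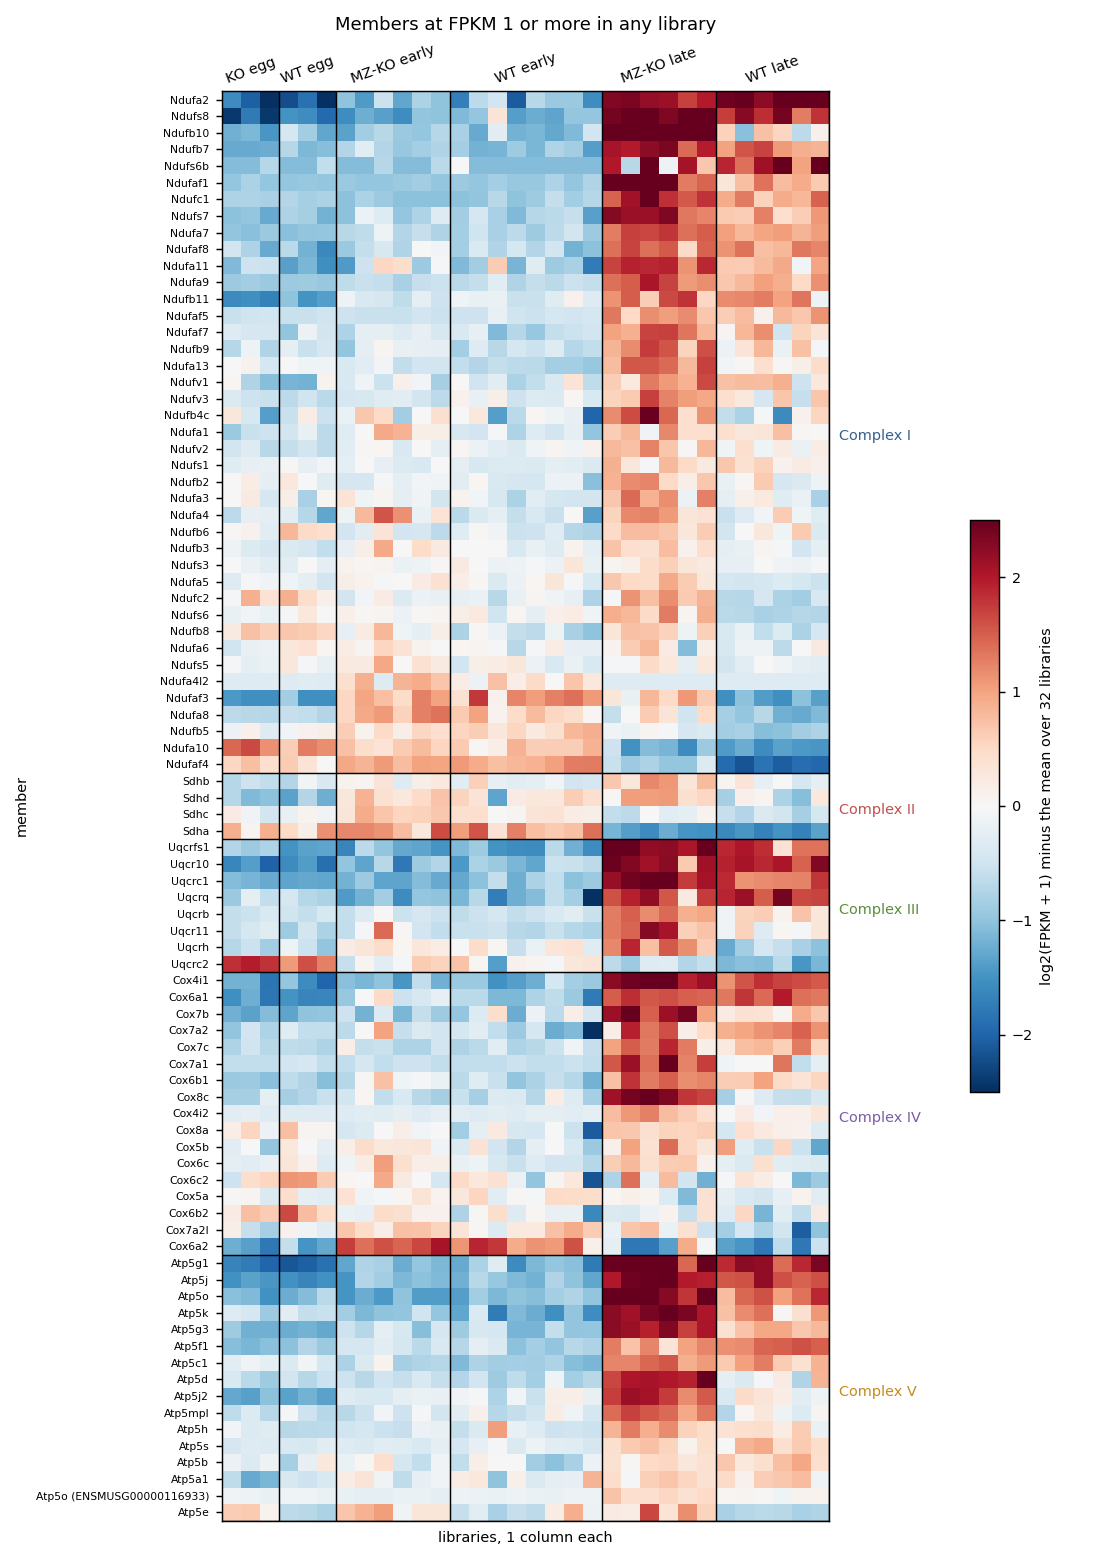
log2(FPKM + 1) of members that reached FPKM 1 in a library, each minus its mean over the 32 libraries (colour), with 1 column per library in 6 groups and 1 row per member by complex. Ndufa2, Uqcr10 and Atp5g1 are high in both late groups, Ndufb10 and Cox8c in the late embryos labelled MZ-KO, and Sdha and Ndufaf4 are low in both late groups.

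In the libraries labelled KO and MZ-KO, 25 of 60 tested members rose and 3 fell between egg and early embryo, where 29.2% of 8305 genes rose and 20% fell. The early values lay wholly above those of eggs for 23 and wholly below for 2 (26.4% and 18.8% of all). Of the 35 members that reached FPKM 1 in 3 libraries of both stages, 11 rose and 3 fell, with no share of all genes computed under that condition. With median-ratio scaling there were 21 rises and 7 falls of members, where 25.9% of all genes rose and 26.4% fell. With the exon length trend removed there were 17 rises and 11 falls, where 23.5% of all rose and 26.2% fell. The largest were Cox6a2 (3.10), Ndufaf3 (2.33), Ndufa8 (1.64), Sdhd (1.44), Cox6a1 (1.26) and Ndufb11 (1.22), and the falls were Uqcrc2 (-1.80), Ndufa10 (-0.83) and Uqcrq (-0.58). The call of Uqcrq is lost without a filter (adjusted p = 0.1221), with all 6 groups in 1 fit (adjusted p = 0.1620) and without any of 5 single libraries, such as KO egg 2 (-0.39, adjusted p = 0.1780). From early to late, 53 of 76 rose and 8 fell, where 48.3% of 8944 genes rose and 33.3% fell. The late values lay wholly above for 42 of the 76 and wholly below for 6 (40.1% and 25.7% of all). Of the 39 members that reached FPKM 1 in 6 libraries of both stages, 26 rose and 3 fell, again with no share of all genes under that condition. With the exon length trend removed 42 of the 76 rose and 15 fell, where 40.6% of all genes rose and 41.3% fell. The largest rises were Ndufb10 (4.10), Ndufs8 (3.88), Atp5o (3.75), Uqcrfs1 (3.75), Atp5g1 (3.45) and Uqcrc1 (3.44), and the largest falls Sdha (-2.42), Cox6a2 (-2.36), Ndufaf4 (-1.70), Ndufa10 (-1.70), Sdhc (-0.90) and Ndufa8 (-0.89). These comparisons share libraries with those between genotypes, and values are set side by side only.

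Subunits with tissue isoforms differed in which isoform led, on the scale of RPM per exon kb. Cox8a was the highest member in every group, at means of 393 in eggs labelled KO and 428 in WT eggs, 315 in MZ-KO and 251 in WT early embryos, and 508 in MZ-KO and 350 in WT late embryos. Cox8b, the heart and muscle form, is listed at 0 in every library, and Cox8c had 20.95 in MZ-KO and 0.880 in WT late embryos. For COX6B the germ cell form Cox6b2 led in eggs, with 109 under the KO label and 155 in WT, where Cox6b1 had 23.04 under the KO label and 27.2 in WT. Late embryos had 163 of Cox6b1 and 67.7 of Cox6b2 in MZ-KO, and 94.8 of Cox6b1 and 65.7 of Cox6b2 in WT. These are means, and in the library WT late 2 Cox6b2 was above Cox6b1 on this scale. The rise of Cox6b1 passed the test in the late stage over the early one (1.33 in both genotypes), and Cox6b2 did not pass it (-0.28 in MZ-KO and 0.05 in WT). Cox4i1 led Cox4i2, the hypoxia and lung form, in all groups, with 167 and 17.3 in MZ-KO and 96.9 and 4.99 in WT late embryos. Cox6a1 led Cox6a2 throughout, with 270 and 2.36 in MZ-KO late, 264 and 0.750 in WT late, 75.3 and 13.9 in MZ-KO early and 43.6 and 10.4 in WT early embryos. Ndufa4l2, the hypoxia paralogue of Ndufa4, had a mean of 0.933 ± 0.53 FPKM in MZ-KO and 0.571 ± 0.35 in WT early embryos (SD, n = 6 and 8) and is listed at 0 in all 12 late libraries. Cox7b2, the testis paralogue of Cox7b, was under FPKM 1 in every library.

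**Figure D5:**
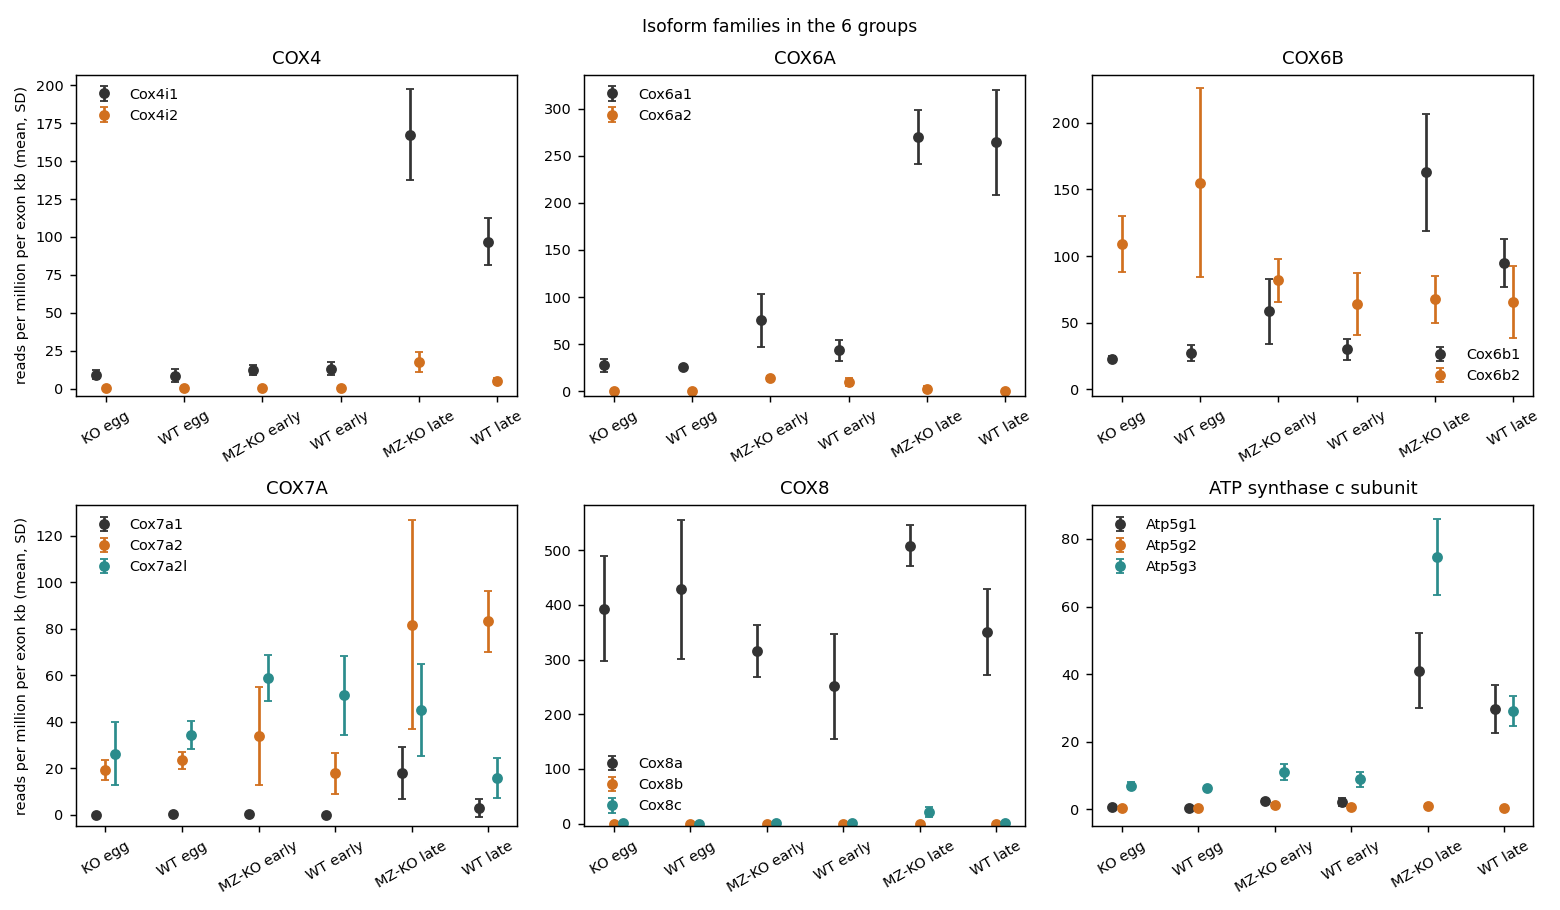
Mean and SD of RPM per exon kb (y axis) of isoform families in the 6 groups (x axis), n = 3 eggs, 6 or 8 early and 6 late embryos. By group means, Cox8a, Cox6a1 and Cox4i1 lead their families in every group, while Cox6b2 leads in eggs and Cox6b1 in late embryos.

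Related genes outside the rule were taken from lists of electron carriers, assembly factors, regulators and coupling genes. In late embryos, 5 of 9 tested genes of electron carriers and coenzyme Q synthesis rose under the MZ-KO label and 1 fell. Among all 8772 genes tested, 18.5% were called higher and 13.4% lower, and these shares apply to each late count below. Cytochrome c (Cycs) had a mean of 18.8 ± 5.6 FPKM in MZ-KO and 6.59 ± 3.2 in WT late embryos (SD, n = 6 each), a difference of 1.42 ± 0.26 (limma, adjusted p = 0.00157), and Cyc1, the cytochrome c1 of complex III, differed by 1.67 ± 0.30 (adjusted p = 0.00129). Of 22 tested assembly factors outside the rule 8 rose, such as Surf1 (1.37) and Cox17 (1.43) of complex IV, and the copper chaperone gene Sco1 fell (-1.09). Among 11 tested regulators 1 rose and 1 fell: Tfam, which packages and transcribes mitochondrial DNA, differed by 2.09 ± 0.19 (adjusted p = 4.2e-05) and the mitochondrial RNA polymerase Polrmt by -0.40 ± 0.14 (adjusted p = 0.0491). Of 6 tested supercomplex, inhibitor and coupling genes 4 rose, among them the adenine nucleotide carriers Slc25a4 (1.36) and Slc25a31 (1.16). From WT early to WT late, 9 of 10 tested regulators rose and 0 fell, where 46.6% of all 9319 genes tested rose and 38.4% fell. Gabpa was at 4.00 and Nrf1 at 0.75. The member Atp5j has 6.69% of its span in exons of Gabpa.

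The authors' deposited table gives 1 comparison of its own, whose direction was read from the values as WT over late MZ-KO. Across 8772 genes its log2 fold change correlated at 0.967 with the late log ratio of FPKM, at 0.204 with the early one and at 0.010 with that of eggs. Of 95 members with an adjusted p in the authors' deposited table, 49 are lower in WT and 4 higher at 0.05, where 10.6% and 10.0% of 23684 genes are. The 4 higher in WT are Ndufa2, Ndufab1, Atp5b and Atp5f1, and only Ndufa2 was called lower in MZ-KO here. Of the 49 members called higher here, 37 are also called in the authors' deposited table. Those not called there include Ndufa4, Ndufs8, Uqcrc2, Cox6b1, Cox7a2l and Cox8a. Both rest on the same libraries.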

How the data were processed

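RNA of 32 single eggs and 2-cell embryos was measured. The authors deposited FPKM per gene and library, and the submitters' processing notes name TopHat2, DESeq, DESeq2 and mm10. Low FPKM values of genes up to 2000 bp came out as whole reads (within 0.1 read) in 99.3 to 100% of cases when the gene's span was taken as its length, and in 18.7 to 28.1% with exon length, with reads behind the scale of 7213613 to 27594882 per library. Because the unit is FPKM, limma took the place of a count test. The authors' deposited comparison holds a log2 fold change, a p-value and adjusted p-value, and a mean normalized count (a signal, per the file headers); its direction is not given in the sources used here and was read from the values.

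Spans and exons came from GENCODE M21 (54495 of 54532 identifiers), and 27 symbols changed to dates by a spreadsheet were restored. A gene entered a fit if its FPKM reached 1 in a number of libraries no lower than the size of the smallest group. Fits used limma 3.58.1 (R 4.3.3, intensity trend, robust) on log2(FPKM + 1), which understates the change of low genes, and p-values were adjusted by Benjamini-Hochberg over all genes tested. Differences are on that scale, and a call is an adjusted p below 0.05. The script was tested on simulated data. Named are the 8 called members with the largest difference in each direction between genotypes, the 6 such between stages and in differences of differences, and a set list of core and isoform genes. Members and lists were chosen with earlier results of these data known. Tried besides were a pseudocount of 0.1, no filter, a filter of FPKM 5, median-ratio scaling, removal of an exon length trend, 1 fit of all 6 groups, and leaving out each library. Of the value columns, 1 of pooled values was not used. The library columns carry no replicate numbers, and libraries are numbered here in column order within a group. Values of 1 member are not reported here and it is not drawn, while counts and sums include it.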

Additional observations from a re-analysis of the deposited data

Results flagged for a closer look

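Single libraries stood apart from the rest of their group in 16 of 213 groups of members tested (7.51%). For independent members chance would give about 1 in 20. Members share libraries and the flagged values of Cox7b2 lie near 0, so that figure is only a rough mark. The library MZ-KO late 5 was far below the other late embryos labelled MZ-KO for Atp5g1 (13.9 FPKM), Uqcr10 (18.96 FPKM) and Uqcrq (6.87 FPKM). WT early 3 was low for Sdhd (1.40 FPKM) and Uqcrc2 (1.14 FPKM) and high for Ndufs8 (7.43 FPKM). WT early 8 was low for Cox6a1 (4.65 FPKM) and Cox7a2 (0.307 FPKM). Among the other WT early embryos, library 1 was high for Ndufs6b (1.12 FPKM), library 2 for Sdhb (1.85 FPKM) and library 6 for Cox7b2 (0.010 FPKM). In WT late embryos, library 3 was high for Cox6c (4.36 FPKM), library 4 for Cox7a1 (2.88 FPKM) and library 5 for Cox7b2 (0.035 FPKM), while library 5 was low for Cox7a2l (0.083 FPKM) and library 6 for Ndufb11 (10.5 FPKM).

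The genotype difference of late embryos minus that of early embryos passed the test (limma) for 31 of 80 members tested, where 12% of all genes had a larger and 8.40% a smaller one. On the log2 scale it was 3.11 for Ndufb10, 2.71 for Cox8c, 2.04 for Ndufaf3, 2.00 for Atp5d, 1.98 for Cox7b, 1.81 for Atp5j2, 1.79 for Uqcrh, 1.73 for Cox7a1 and 1.63 for Atp5mpl. It was 1.49 for Ndufaf1, 1.45 for Ndufs6, 1.40 for Atp5o, 1.29 for Ndufaf4, 1.28 for Ndufc2, 1.15 for Atp5k, 1.11 for Uqcrc1, 1.08 for Ndufv3, 1.05 for Atp5g3, 1.04 for Ndufs8 and 1.02 for Uqcrfs1. Below 1 were Ndufc1 (0.996), Ndufs7 (0.922), Ndufb5 (0.898), Cox4i1 (0.81), Ndufa13 (0.774), Uqcrb (0.752), Ndufv2 (0.695), Ndufa9 (0.66), Atp5j (0.596) and Ndufa7 (0.457), and Atp5f1 was at -0.71. Of the 30 larger ones, 19 were called in every alternative in which they were tested. Uqcrfs1 lost the call with a pseudocount of 0.1 (adjusted p = 0.1357), without a filter (0.0774), with median-ratio scaling (0.1075) and without any of 6 single libraries. With median-ratio scaling it was lost for Cox4i1 (0.54, adjusted p = 0.1471), Ndufs8 (adjusted p = 0.0785) and Ndufv2 (adjusted p = 0.0783). Ndufs7 lost it under 3 settings, with an adjusted p of up to 0.2909, and Atp5k with a pseudocount of 0.1 (adjusted p = 0.0596). Without single libraries it was also lost for Atp5j (17 libraries) and Ndufa7 (14 libraries), and under other settings for Ndufa13, Ndufa9 and Uqcrb.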

How the results depend on the processing

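No paired analysis was possible because the library columns carry no replicate numbers that pair libraries across groups, and DESeq2 on counts was not run because the table holds FPKM. Of the 49 members higher in late embryos labelled MZ-KO, 36 kept the call in every alternative in which they were tested. Leaving out single libraries gave 44 to 53 members called in late embryos, 0 to 6 in early embryos, 18 to 25 from egg to early and 46 to 51 from early to late in WT, 22 to 31 and 61 to 66 in the libraries labelled KO and MZ-KO, and 28 to 36 for the late minus early difference. The early count of 2 became 0 without a filter, 1 with the FPKM 5 filter, 1 with median-ratio scaling and 7 with all 6 groups in 1 fit, where 0.121%, 4.71%, 1.90% and 4.13% of all genes were higher. With the FPKM 5 filter, which tests fewer genes, the counts were 25 of 40 tested in late embryos (20.2% of all genes higher and 20.2% lower), 12 of 24 (33.4% and 25.7%) and 24 of 31 (51.0% and 38.1%) between WT stages, 12 of 24 (32.8% and 25.3%) and 35 of 42 (51.3% and 35.3%) between KO stages, and 18 of 48 for the late minus early difference (12.7% and 10.9%). With the exon length trend removed, the change of Cox8a from early to late MZ-KO embryos was -0.13, where it was 0.69 without; the cause was not tested. Genes at a few reads per library are limited by depth, and the number of females behind a group is not given.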
